A study of Mus musculus with 8 samples.

Results

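The MHC class I antigen presentation pathway was followed through 9 genes, taken as the rows of the deposited expression table whose gene name was H2-K1, H2-D1, B2m, Tap1, Tap2, Tapbp, Psmb8, Psmb9 or Nlrc5. All 9 were found among the 31228 genes of the table. The study sequenced polyadenylated RNA from mouse ducts and from organoids grown out of them, and asked how alike the epithelia of the bile duct and the pancreatic duct are. The 4 kinds of sample below are all labelled as strain C57BL/6. Epithelium of the extrahepatic bile duct and epithelium of the pancreatic duct were each represented by 1 library, made from tissue that was dissected, minced, digested with collagenase IV and put straight into Trizol. They are called biliary epithelium and pancreatic epithelium below, the latter meaning the duct. Bile duct organoids and pancreatic duct organoids, which are cultures of duct cells growing as hollow spheres in Matrigel, were represented by 3 libraries each. They were grown in a medium with Wnt3A conditioned medium, R-spondin-1, Noggin, EGF, FGF10, nicotinamide, N-acetylcysteine, B27 and the kinase inhibitor Y27632, later without Wnt3A and Y27632, and were taken after 3 to 4 passages. The listed components include no interferon and no immune cell. No genotype or treatment separated the groups, the labels give no animal age, and no control library was part of the design. The labels do not say whether the organoid replicates came from separate animals, so p-values measure only the spread between these libraries.

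Nearly every nucleated cell displays fragments of its own proteins on class I molecules, where CD8 T cells read them. The proteasome makes the peptides, the TAP1-TAP2 transporter moves them into the endoplasmic reticulum, tapasin holds an empty class I molecule next to the transporter, and a heavy chain with its light chain, beta-2 microglobulin, carries the peptide to the surface. NLRC5 is a transactivator that works on the promoters of these genes together with the RFX, CREB/ATF and NF-Y factors, and interferon gamma raises most of the pathway, in part through IRF1, including the immunoproteasome subunits encoded by Psmb8 and Psmb9. In bile ducts, epithelial class I display is of interest because cholangiocytes are targets of T cells in immune-mediated duct disease.

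Upstream sequences are shown because the members moved together and because the textbook control elements of class I genes can be read in them. RefSeq promoter entries (build GRCm38.p6) existed for 7 of the 9 genes. Tap2 and Nlrc5 had no entry. The 250 bases before each start were searched on both strands for an interferon-stimulated response element core (GAANNGAAA), a kappa B-like site (GGGNNTTCC), a CCAAT box (these letters), a gamma-activated site core (TTCNNNGAA) and a cAMP response element half-site, which is TGACG. Matches to all but the gamma-activated site core are in capitals, on whichever strand they lie, and no match overlapped another. The sequences are written 5′ to 3′ on the gene's own strand. The H2-K1 window is the 1 of its 2 RefSeq windows that ends at the start in the deposited table. Starts are those of RefSeq, and the windows of H2-D1, Tapbp, Psmb8 and Psmb9 lie inside the gene spans of the deposited table. H2-K1 is at chr17:34000334-34000583 on the minus strand, H2-D1 at chr17:35262844-35263093 on the plus strand, B2m at chr2:122147437-122147686 on the plus strand and Tap1 at chr17:34187306-34187555 on the plus strand.
H2-K1: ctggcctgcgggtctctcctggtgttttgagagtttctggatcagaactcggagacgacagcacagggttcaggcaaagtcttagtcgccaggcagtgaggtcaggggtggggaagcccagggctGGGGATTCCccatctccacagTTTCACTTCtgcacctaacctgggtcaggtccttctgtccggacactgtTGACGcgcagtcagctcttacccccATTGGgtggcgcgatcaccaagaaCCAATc
H2-D1: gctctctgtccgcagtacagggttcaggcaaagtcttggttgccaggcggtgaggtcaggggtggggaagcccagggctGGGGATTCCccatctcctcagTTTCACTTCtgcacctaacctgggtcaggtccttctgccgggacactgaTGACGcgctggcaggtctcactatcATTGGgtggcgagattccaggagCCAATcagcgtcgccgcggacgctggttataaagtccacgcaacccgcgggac
B2m: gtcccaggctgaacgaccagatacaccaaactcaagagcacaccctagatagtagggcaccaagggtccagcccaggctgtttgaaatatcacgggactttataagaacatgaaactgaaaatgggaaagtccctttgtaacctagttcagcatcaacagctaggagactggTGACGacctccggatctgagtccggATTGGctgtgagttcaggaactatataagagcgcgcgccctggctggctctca
Tap1: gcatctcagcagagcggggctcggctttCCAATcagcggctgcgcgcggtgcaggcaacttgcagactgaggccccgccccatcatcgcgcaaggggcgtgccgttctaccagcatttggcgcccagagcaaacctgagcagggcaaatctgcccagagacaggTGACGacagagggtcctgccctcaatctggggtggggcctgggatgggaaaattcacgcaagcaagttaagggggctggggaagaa
The heavy chain genes H2-K1 and H2-D1 had the same arrangement. From the start of the kappa B-like match to the start of the interferon-stimulated response element core there were 21 bases in each, from there to the cAMP response element half-site 49 bases, and from the half-site to a CCAAT box on the reverse strand 25 bases. B2m had the same 25 bases between the half-site and a reverse CCAAT box, without a match to the kappa B-like or interferon-stimulated motif. The Tap1 and Psmb9 upstream windows shared 225 bases (chr17:34187331-34187555), since these genes start next to each other and run in opposite directions. Among the 7 genes, 2 held the interferon-stimulated response element core, 2 the kappa B-like site, 5 the half-site, 6 a CCAAT box and 1, Psmb8, the gamma-activated site core. Of all 32851 RefSeq mouse promoters searched over the same length, 6.31%, 4.98%, 17.8%, 33.8% and 7.02% held these motifs, in that order. A match is a description of letters, and no match says only that these letters were not in the window.

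The libraries held 12876469 to 20828216 implied reads or read pairs. Levels are given as scaled FPKM, that is fragments scaled to exon length and library size, divided here by a factor per library between 0.924 and 1.07. The duct identity of the organoids was checked against 10 duct epithelium genes, whose summed level was 2708 in biliary epithelium, 680 in pancreatic epithelium and 5176 to 11298 in the organoids. The epithelia held much RNA of other cells. Acinar genes, which mark enzyme-secreting pancreas cells, summed to 18486 in biliary epithelium and 39011 in pancreatic epithelium, against 1.71 to 7.66 in the organoids, and 20 leukocyte genes summed to 578 and 529, against 3.56 to 17.1. In the organoids 8 to 13 of the 20 leukocyte genes were at 0, and Ptprc, the pan-leukocyte phosphatase CD45, was at 0 to 0.00788. Endothelial genes summed to 301, 562 and 1.08 to 1.74, fibroblast genes to 1278, 1485 and 0.151 to 2.54, and smooth muscle genes to 1672, 3293 and 0.262 to 0.495, in the same order. Leukocytes and endothelium express class I genes strongly, so these values stand beside every organoid to epithelium difference below. The part of these cells in the differences was not tested, and in bulk RNA fewer cells of a type and less RNA per cell cannot be told apart.

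The library labelled pancreatic duct epithelium also went against its strain label at a neighbouring gene of the same complex. H2-Ea-ps, the class II E-alpha gene, was at 103 there (1522 reads), at 0.960 (12 reads) in biliary epithelium and at 0 in all 6 organoids. In C57BL/6 mice a deletion in the promoter of this gene keeps it silent. Its partner H2-Eb1, which those mice do express, was at 129 in the library labelled pancreatic duct epithelium and 305 in biliary epithelium. In the organoids H2-Eb1 was at only 0.0549 to 0.335, so the lack of H2-Ea-ps reads there does not speak to their strain. H2-Ea-ps was chosen after its values were seen. H2-K1 and H2-D1 are highly polymorphic between mouse strains, and how far strain differences changed their read counts in that library was not tested. In the comparison of organoids with epithelia, the values of the members tested are therefore also given without it. For the wider pathway lists, counts or lost calls are given without it. The values of single genes in the wider lists are given only with it.

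Class I presentation genes were lower in organoids than in epithelia. In a limma fit over all 8 libraries with organ as a covariate, 7 of 8 genes fell at a Benjamini-Hochberg adjusted p under 0.05 and 0 rose, against 26.9% of the 14967 genes tested that were lower in organoids and 32.5% that were higher. The median difference of the 9 was -2.26 on the log2(scaled FPKM + 1) scale, and the median of all genes tested was 0.11. The ninth gene, Nlrc5, passed the filter of 1 FPKM in 2 libraries only through the epithelia, so it had to differ. It is kept out of the count of 7 of 8 but is in the median of the 9. Tapbp did not pass the test. With no scaling the median of all genes was 0.23, and with voom on recovered reads it was -0.06, with 4607 genes lower and 3562 higher where limma on FPKM gave 4030 and 4868. Under each, 8 of the 9 members were called lower, Nlrc5 included. Both epithelia lay above every organoid in 8 of the 9 genes, as they did in 28.3% of the genes tested, and below every organoid in 35.6%. Nlrc5 is among those 8, and its place there followed from the filter. Only 2 epithelium libraries, 1 for each organ, entered this comparison. Without the library labelled pancreatic duct epithelium 7 of 8 genes tested fell, against 9.47% of all genes lower and 24.4% higher in that fit. Without the biliary epithelium 5 of 8 fell, against 10.5% lower and 26.1% higher. Nlrc5 was not tested in either. Such fits leave a single epithelium, which is assumed to vary as the organoids do, so their p-values rest on the spread of the organoids alone. Without the library labelled pancreatic duct epithelium the limma differences were -3.34 for B2m, -2.19 for Tap1, -1.83 for Tap2, -3.35 for Psmb8 and -2.99 for Psmb9, with adjusted p of 0.00998, 0.00331, 0.0103, 0.0188 and 0.00874, and -0.77 for Tapbp (adjusted p = 0.342).

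**Figure D1:**
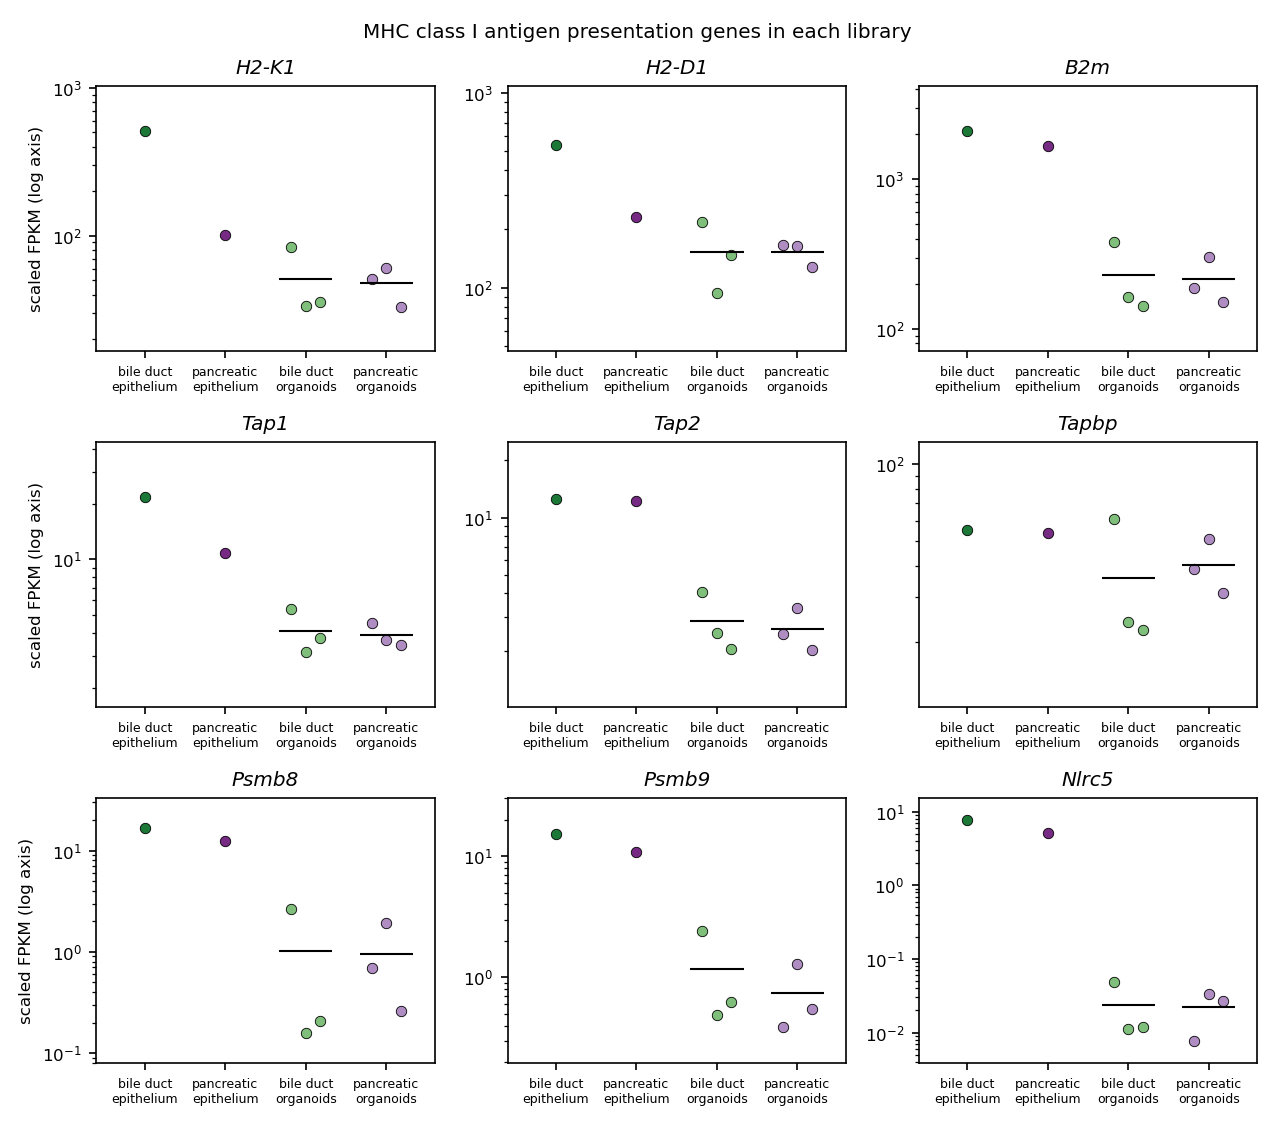
Scaled FPKM (log axis, its range set separately for each gene) of the 9 class I genes in 1 biliary epithelium, 1 pancreatic epithelium, 3 bile duct organoids and 3 pancreatic duct organoids. Points are libraries and horizontal bars are means of 3 organoids. For every gene except Tapbp both epithelium points lie above all 6 organoid points, and the organoid groups overlap in all 9.

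H2-K1 encodes the heavy chain H-2K, 1 of the classical peptide-presenting molecules of the mouse (chromosome 17, 33996017 to 34000333, minus strand). It was at 515 scaled FPKM in biliary epithelium and 100.4 in pancreatic epithelium. The bile duct organoids 1, 2 and 3 were at 83.7, 33.7 and 35.8, and the pancreatic duct organoids at 51.3, 60.1 and 33.1. The epithelia did not overlap the organoids, but the lower epithelium was only 1.20 times the highest organoid. The log2 difference was -2.26 (SE 0.58, limma adjusted p = 0.0129, lower in 6 of 6 organoids than in either epithelium).

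H2-D1 encodes the other classical heavy chain, H-2D (chromosome 17, 35262730 to 35267499, plus strand). Its scaled FPKM was 541 in biliary epithelium and 231 in pancreatic epithelium, 217, 94.4 and 148 in the bile duct organoids and 166, 163 and 128 in the pancreatic duct organoids. It was the heavy chain that fell less, and the lower epithelium was 1.06 times the highest organoid. The log2 difference was -1.25 (SE 0.38, limma adjusted p = 0.0247). The H2-D1 call was lost with array weights (adjusted p = 0.0773), and both heavy chain calls were lost without the biliary epithelium library. In that fit, with its single epithelium, the limma differences were -1.09 (adjusted p = 0.178) for H2-K1 and -0.61 (adjusted p = 0.310) for H2-D1. Without the library labelled pancreatic duct epithelium they were -3.44 (adjusted p = 0.00709) and -1.90 (adjusted p = 0.0190). Of windows of 50 bases in their exons, 9.63% of H2-K1 and 12.8% of H2-D1 also occurred in another gene, chiefly other class I genes, so a part of their reads could have been assigned to relatives.

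B2m encodes beta-2 microglobulin, the light chain of classical and most nonclassical class I molecules (chromosome 2, 122147686 to 122153083, plus strand). It was the most abundant member in 7 of the 8 libraries. Its scaled FPKM was 2098 in biliary epithelium and 1672 in pancreatic epithelium, 381, 163 and 142 in the bile duct organoids and 189, 304 and 152 in the pancreatic duct organoids. The lower epithelium was 4.39 times the highest organoid, so the groups were well apart. The log2 difference was -3.18 (SE 0.42, limma adjusted p = 0.000582). Relative to the summed heavy chains, B2m was 1.99 in biliary epithelium, 5.05 in pancreatic epithelium and 0.773 to 1.36 in the organoids, all as ratios of levels per length. B2m was thus lower relative to the summed heavy chains in every organoid than in either epithelium, and no test of that ratio was made. Relative to H2-K1 alone this did not hold in bile duct, where the organoid mean of H2-K1 was 10.1 times below its epithelium and that of B2m 9.18 times.

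The proteins of Tap1 and Tap2 together form the peptide transporter. Tap1 (chromosome 17, 34187553 to 34197225, plus strand) was at 21.8 scaled FPKM in biliary epithelium and 10.8 in pancreatic epithelium, 5.34, 3.14 and 3.76 in the bile duct organoids and 4.48, 3.66 and 3.44 in the pancreatic duct organoids. All organoids were below both epithelia, the nearest by 2.03 times, and the log2 difference was -1.74 (SE 0.25, limma adjusted p = 0.000816). Tap2 (chromosome 17, 34203527 to 34216321, plus strand) was nearly level between the epithelia, at 12.5 and 12.2. Its scaled FPKM was 4.09, 2.48 and 2.03 in the bile duct organoids and 2.44, 3.37 and 2.02 in the pancreatic duct organoids, and its log2 difference was -1.86 (SE 0.23, limma adjusted p = 0.000394). The organoid ranges of these partners, 3.14 to 5.34 and 2.02 to 4.09, overlapped, and their differences were not compared by a test.

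Tapbp encodes tapasin, the bridge between transporter and heavy chain (chromosome 17, 33915899 to 33929288, plus strand). Its scaled FPKM was 55.2 in biliary epithelium and 53.6 in pancreatic epithelium, 60.9, 24.0 and 22.3 in the bile duct organoids and 38.9, 50.8 and 31.1 in the pancreatic duct organoids. Bile duct organoid 1 was above both epithelia and the other 5 organoids were below them. The log2 difference was -0.60 (SE 0.39, limma adjusted p = 0.221). Without bile duct organoid 1 it was -0.80 (limma adjusted p = 0.0297), so that single culture decided the call.

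Psmb8 and Psmb9 encode catalytic subunits LMP7 and LMP2 of the immunoproteasome, which replace the constitutive subunits encoded by Psmb5 and Psmb6 and favour peptides that fit class I grooves. Psmb8 (chromosome 17, 34197721 to 34201454, plus strand) was at 16.6 scaled FPKM in biliary epithelium and 12.4 in pancreatic epithelium. The bile duct organoids were at 2.68, 0.158 and 0.205 and the pancreatic duct organoids at 0.688, 1.90 and 0.263, which correspond to 156, 11, 14, 36, 114 and 20 reads. The epithelia stood at least 4.63 times above every organoid, while the organoids themselves ranged over 16.9 times. The log2 difference was -3.11 (SE 0.51, limma adjusted p = 0.00164).

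Psmb9 (chromosome 17, 34181988 to 34187764, minus strand) was at 15.1 scaled FPKM in biliary epithelium and 10.8 in pancreatic epithelium, 2.42, 0.486 and 0.627 in the bile duct organoids and 0.390, 1.28 and 0.553 in the pancreatic duct organoids. The lower epithelium was 4.48 times the highest organoid. Its log2 difference was -2.89 (SE 0.35, limma adjusted p = 0.000358). Psmb9 and Tap1 overlap by 212 bases on opposite strands, and the library kit does not mark strand, so reads in that stretch cannot be assigned to one of them. Other members lie within or across the spans of neighbouring genes, introns included. B2m overlaps Patl2 over 5398 bases, its whole span, on the opposite strand. Tap2 and Psmb8 overlap antisense transcripts annotated by GENCODE, and part of Tapbp overlaps Zbtb22 on the same strand. How much of these overlaps lies in exons of both genes was not measured.

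Nlrc5 showed the widest gap in relative level (chromosome 8, 94434356 to 94527272, plus strand). It was at 7.68 scaled FPKM in biliary epithelium and 5.19 in pancreatic epithelium. In the bile duct organoids it was at 0.0479, 0.0113 and 0.0120 and in the pancreatic duct organoids at 0.00765, 0.0333 and 0.0265, from 7, 2, 2, 1, 5 and 5 reads. The lower epithelium was 108 times the highest organoid. The biliary epithelium held 792 reads, against 11 over its 3 organoids, a ratio after scaling of 342 (95% exact counting interval 190 to 687). The pancreatic epithelium held 629, against 11, a ratio of 221 (123 to 446). These intervals cover counting error only. The log2(scaled FPKM + 1) difference of -2.84 (SE 0.12) understates such a ratio, since the organoid levels are small beside the pseudocount of 1.

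**Figure D2:**
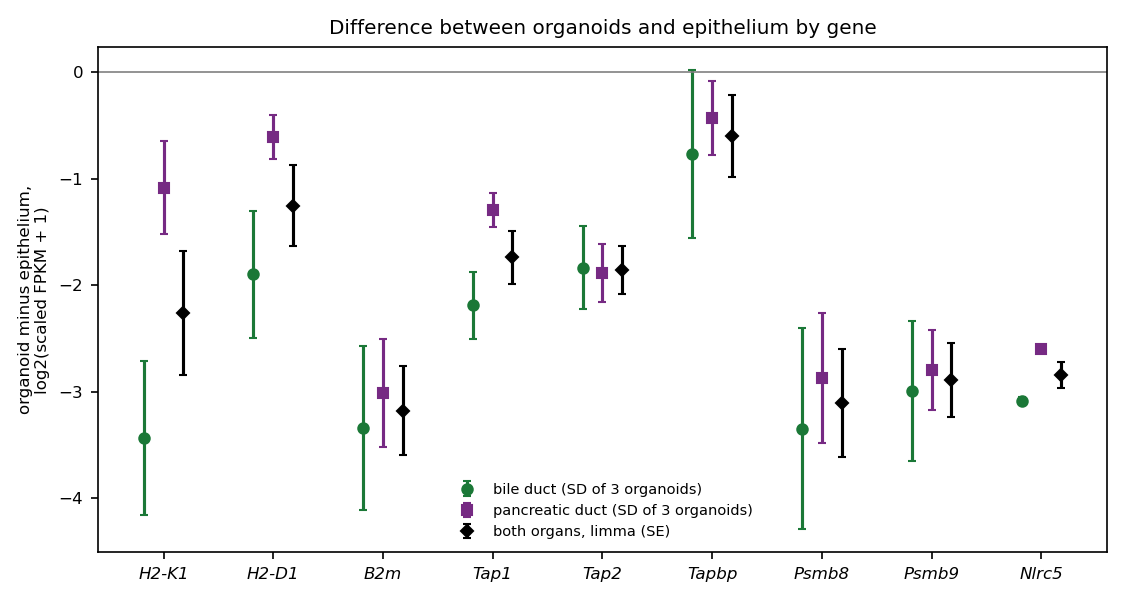
Organoid minus epithelium on the log2(scaled FPKM + 1) scale for the 9 genes. Circles are bile duct and squares pancreatic duct (mean of 3 organoids minus 1 epithelium, bars SD of the 3 organoids), and diamonds are the limma estimate over both organs (bars SE). H2-K1 shows the widest gap between organs, -3.44 against -1.09, and Tapbp lies nearest 0.

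Within each organ, genes were counted by a 2-fold rule with no test of their own, since each epithelium is 1 library. The differences are those of the fits above that leave out the epithelium of the other organ, with the same limit on their p-values. In bile duct, 8 of the 9 genes were at least 2-fold lower with all 3 organoids below the epithelium, against 23.6% of 15795 genes lower and 14.7% higher by the same rule. In pancreatic duct, 7 of the 9 were, against 22.7% of 15591 genes lower and 17.1% higher. Nlrc5 is in both counts, but it passed the minimum of 1 FPKM only through the epithelium and so had to be higher there. Tapbp missed the rule in both organs and H2-D1 in pancreatic duct. H2-K1 in pancreatic duct was near the limit, and was no longer counted with FPKM as deposited (-0.94, 6 genes) or without pancreatic duct organoid 3 (-0.84, 6 genes). The log2 differences for bile duct and pancreatic duct were -3.34 and -3.01 for B2m, -1.83 and -1.88 for Tap2, -3.35 and -2.87 for Psmb8 and -2.99 and -2.79 for Psmb9. For these genes the values of the 2 organs lay close together. They lay further apart for the heavy chains, with -3.44 (SD 0.72 over 3 organoids) against -1.09 (SD 0.44) for H2-K1 and -1.90 (SD 0.60) against -0.61 (SD 0.21) for H2-D1. Tap1 lay between, at -2.19 and -1.29. Whether the organs differed in these changes was not tested, because each change rests on a single epithelium. All pancreatic duct values rest on the library with the strain mismatch, and no other library can replace it.

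The epithelia themselves were compared without a test. The heavy chains were higher in biliary epithelium, H2-K1 by 5.13-fold and H2-D1 by 2.35-fold, and these were the 2 of 9 genes at least 2-fold apart on the log2(scaled FPKM + 1) scale. Of 15315 genes, 8.73% were at least 2-fold higher in biliary epithelium and 4.54% in pancreatic epithelium. Tap1 was 2.01-fold higher as a ratio of scaled FPKM, with a log2 difference of 0.94 after the pseudocount. Nlrc5, Psmb9, Psmb8 and B2m were 1.48-, 1.40-, 1.33- and 1.25-fold higher, and Tap2 and Tapbp 1.02- and 1.03-fold. All 9 were thus on the bile duct side by some amount, Tap2 and Tapbp by next to none. The median log2 difference of all genes was -0.04, and the share of all genes on that side was not counted. H2-K1 made up 48.7% of summed H2-K1 and H2-D1 in biliary epithelium, 30.3% in pancreatic epithelium and 19.5% to 27.8% in the organoids. Duct epithelium genes were also higher in biliary epithelium, 9 of 10 by at least 2-fold, and 5 of 20 leukocyte genes were higher there and 3 in pancreatic epithelium. The 6 intestinal genes, which mark absorptive gut epithelium, were all at least 2-fold higher in biliary epithelium, with a summed level of 412 against 17.9 in pancreatic epithelium and 51.1 to 107 in the organoids, where nearly all of it was Vil1. The part of cell makeup or strain in the heavy chain difference was not tested.

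Between the organoid groups no class I gene passed the test. In the limma fit of bile duct against pancreatic duct organoids 0 of 12094 genes were called (0%), with 311 at an unadjusted p under 0.05, and voom called 1. Psmb8, Psmb9 and Nlrc5 were under the filter of 1 FPKM in 3 organoids, and 0 of the 6 members tested were called or had an unadjusted p under 0.05. The log2 differences, bile duct minus pancreatic duct, were -0.02 (SE 0.40) for H2-K1, -0.07 (SE 0.31) for H2-D1, -0.01 (SE 0.44) for B2m, 0.04 (SE 0.19) for Tap1, 0.07 (SE 0.24) for Tap2 and -0.31 (SE 0.41) for Tapbp. The SEs leave room for differences of these sizes or larger, so the groups are not shown to be alike. The group means rested on bile duct organoid 1, without which all 6 differences were negative, from -0.14 for Tap1 to -0.76 for Tapbp (limma adjusted p 0.557 to 0.789). With it, B2m was at 228 ± 133 (SD, n = 3) and 215 ± 79.1 (SD, n = 3), and H2-D1 at 153 ± 61.4 (SD, n = 3) and 152 ± 21.2 (SD, n = 3). The ranges of the organoid groups overlapped for all 9 genes, which is near the background, since only 6.79% of the genes tested had ranges that did not. The order of levels was biliary epithelium, then pancreatic epithelium, then both organoid groups without a separation between them. For Tap2 and Tapbp the epithelia were nearly level. Tapbp departed from it, with bile duct organoid 1 at the top.

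Single cultures within a group differed widely. Bile duct organoid 1 was the highest organoid for all 9 genes, and pancreatic duct organoid 2 was among the highest 2 for 7. Bile duct organoid 2 was among the lowest 2 for 7, pancreatic duct organoid 3 for 5 and bile duct organoid 3 for 4. The ratio of highest to lowest organoid was 16.9 for Psmb8, 6.27 for Nlrc5, 6.19 for Psmb9, 2.73 for Tapbp, 2.69 for B2m, 2.53 for H2-K1, 2.30 for H2-D1, 2.02 for Tap2 and 1.70 for Tap1. The SD over the 6 organoids on the log2(scaled FPKM + 1) scale was above the median of the genes tested for 8 of the 9. The summed level of 17 interferon-stimulated genes followed the same order at the top, at 124 in bile duct organoid 1 and 65.4 in pancreatic duct organoid 2, against 36.6 to 47.7 in the other 4. Bst2 made up most of these sums, at 82.8 in bile duct organoid 1, 45.9 in pancreatic duct organoid 2 and 30.5 to 40.9 in the other 4. Leukocyte genes summed to 17.1 in pancreatic duct organoid 2 and to 7.10 in bile duct organoid 1, against 3.56 to 7.42 in the other 4. Epcam, an epithelial adhesion gene, was at 1039 in bile duct organoid 1 and 785 in pancreatic duct organoid 2, against 335 to 433 in the other 4. Epcam was chosen after its values were seen. The part of other cells in this spread was not tested.

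**Figure D3:**
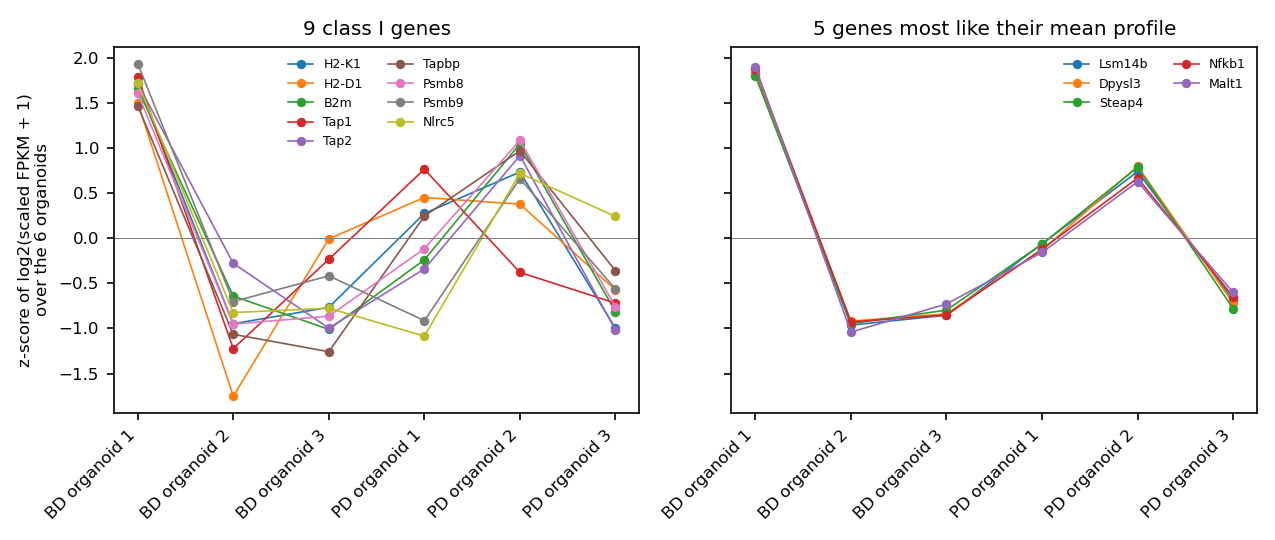
Z-scores of log2(scaled FPKM + 1) over the 6 organoids for the 9 class I genes (left) and for the 5 genes with the highest Pearson correlation with their mean (right). Points are libraries (BD bile duct, PD pancreatic duct) and lines join the values of 1 gene, with no order implied among replicates. Bile duct organoid 1 is highest for all 9 class I genes, and pancreatic duct organoid 2 is second for 7 of them.

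Genes most like the members were ranked by Pearson's r between log2(scaled FPKM + 1) and the mean z-score of the 9, over 6 organoids and 7379 protein-coding candidates. The leading genes were Lsm14b, Dpysl3, Steap4, Nfkb1 and Malt1, with r between 0.998 and 0.999. The members themselves had r from 0.803 (Tap1) to 0.984 (Psmb8). As many as 613 candidates reached 0.9, and with 6 libraries that share 1 high culture a high r is easily met, so these are descriptions. Nfkb1, a subunit of NF-kappa B, was at 21.6, 8.35 and 8.58 scaled FPKM in the bile duct organoids and 11.0, 14.4 and 9.21 in the pancreatic duct organoids. Dpysl3, a microtubule-associated protein of growing neurites, was at 21.8, 0.0844 and 0.187 and at 1.61, 6.37 and 0.352. Steap4, a metalloreductase, was at 21.4, 0.183 and 0.388 and at 2.04, 6.55 and 0.413. Their organoid order was that of Psmb8, while their levels in the epithelia were not uniformly higher, Nfkb1 being at 8.20 and 10.6. Over all 8 libraries the highest r belonged to Pfdn5 (0.993), Gpx3 (0.990), Gabarap (0.990), Decr1 (0.988) and Tgoln1 (0.985), and 247 candidates reached 0.9.

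Of 7 proteasome genes that were not members, 2 fell and 4 rose in organoids, where 26.9% of all genes tested were lower and 32.5% higher. The counts were 1 and 3 without the library labelled pancreatic duct epithelium. Psmb10, the third immune catalytic subunit, was at 44.4 scaled FPKM in biliary epithelium, 34.8 in pancreatic epithelium and 7.54 to 16.5 in the organoids, a log2 difference of -1.94 (SE 0.28, limma adjusted p = 0.000820). Psme1, a subunit of the interferon-inducible PA28 cap, fell by 1.02 (SE 0.28, limma adjusted p = 0.0168). Its partner Psme2 did not pass the test, at -0.67 (adjusted p = 0.123). The constitutive subunits Psmb5, Psmb6 and Psmb7 rose by 0.70, 0.64 and 0.43, and Psme3, which encodes the nuclear cap PA28 gamma, rose by 1.38. With voom on recovered reads the Psmb5 and Psmb7 calls were lost, without the library labelled pancreatic duct epithelium those of Psmb5 and Psme1, and without biliary epithelium those of Psmb7 and Psme1. With these levels, Psmb8 was 38.1% of summed Psmb8 and Psmb5 in biliary epithelium and 43.7% in pancreatic epithelium. In the bile duct organoids it was 6.54%, 0.447% and 0.525%, and in the pancreatic duct organoids 1.89%, 5.53% and 0.965%. Psmb9 was 25.5% and 20.7% of summed Psmb9 and Psmb6 in the epithelia and 0.590% to 3.45% in the organoids. Psmb10 held a larger share, at 77.2% and 71.8% of summed Psmb10 and Psmb7 in the epithelia and 29.2% to 44.5% in the organoids. In each pair the epithelia did not overlap the organoids, and these shares carry no test.

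**Figure D4:**
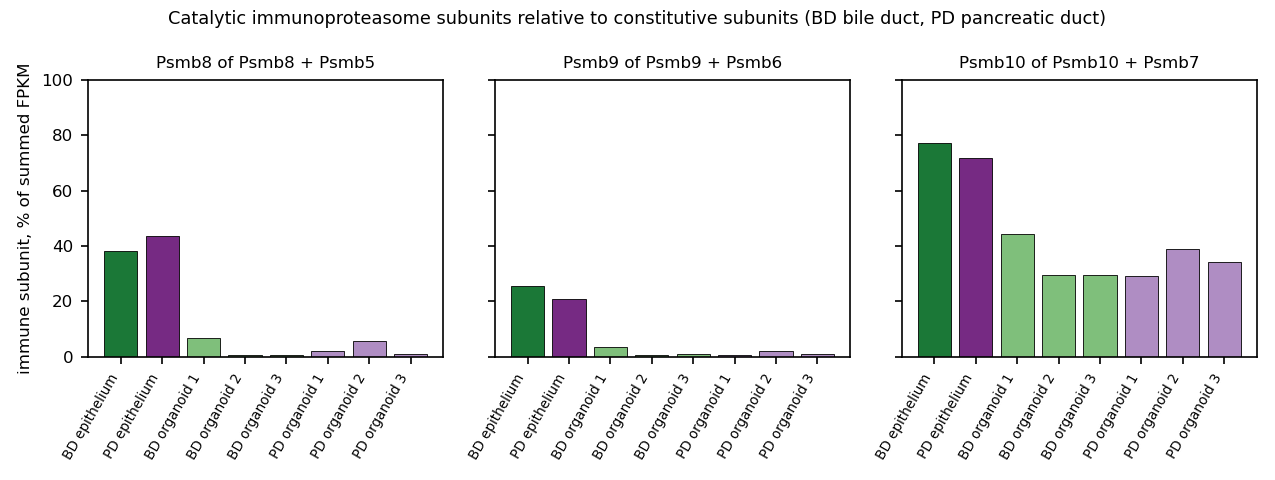
Level of each immune catalytic subunit as a percentage of its sum with the constitutive subunit it replaces (scaled FPKM), 1 bar per library. Psmb8 and Psmb9 stand at 20.7% to 43.7% in the epithelia and at 0.447% to 6.54% in the organoids, while Psmb10 stays at 29.2% or more.

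Class I-like and nonclassical genes fell with the classical ones. Of 18 listed, 15 were tested, 13 fell and 0 rose, against 26.9% lower and 32.5% higher of all genes tested. However, 5 of the 15 (Fcgrt, H2-Q1, H2-Q6, H2-Q7 and H2-T24) passed the filter only through the epithelia and had to be higher there. Of the remaining 10, 8 fell. Without the library labelled pancreatic duct epithelium the calls of H2-T22, H2-T23 and Mr1 were lost, and H2-Q2 gained one. In bile duct alone the median log2 difference of all 18 listed was -2.24 and that of all genes was 0.07, without a test. Genes that passed the filter only through the epithelia are in that median of the 18. Fcgrt, the neonatal Fc receptor, which pairs with B2m and salvages immunoglobulin G and albumin, was at 71.5 scaled FPKM in biliary epithelium, 78.1 in pancreatic epithelium and 0.749 to 1.10 in the organoids (log2 difference -5.33, SE 0.12). H2-Q6 and H2-Q7, of the Qa-2 family, were at 97.6 and 27.4 in biliary epithelium, 26.1 and 6.24 in pancreatic epithelium and at most 0.809 and 0.682 in any organoid. H2-T24 was at 7.51, 28.5 and 0.182 to 1.47, higher in pancreatic epithelium, unlike the classical heavy chains. H2-T23, which encodes Qa-1 and presents to natural killer cell receptors, and its neighbour H2-T22 stood apart in a single library. In bile duct organoid 3 they were at 1.18 and 0.254, against 5.85 to 23.1 and 2.29 to 12.6 in the other 5 organoids. These 2 genes were chosen after their values were seen. Read sharing is larger here, with 32.0%, 26.4%, 34.5% and 13.6% of windows of 50 bases in H2-Q6, H2-Q7, H2-T22 and H2-T23 also found in another gene, so single levels in this family are uncertain.

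The rest of the peptide loading machinery did not move as one. Of 7 genes tested, 2 fell and 3 rose, near the 26.9% and 32.5% of all genes. Erap1, the aminopeptidase that trims peptides in the endoplasmic reticulum, was at 13.5 and 17.6 scaled FPKM in the bile duct and pancreatic duct epithelia and 4.64 to 7.92 in the organoids (log2 difference -1.29, SE 0.20, limma adjusted p = 0.00111). Tapbpl, the tapasin relative TAPBPR, fell by 0.80. The general chaperones calnexin (Canx) and ERp57 (Pdia3) rose by 0.89 and 0.37, and the cytosolic aminopeptidase Npepps rose by 1.05. Calr and Lnpep did not pass the test, at 0.20 and -0.04. The Pdia3 call was lost with voom, with array weights, with no filter and without pancreatic duct organoid 1, and those of Pdia3 and Tapbpl were lost on leaving out either epithelium library, which left 1 that fell and 2 that rose.

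Among 16 transcriptional regulators of class I genes, 5 fell and 2 rose, a share of falls near the 26.9% of all genes tested. Those that fell included the interferon pathway factors Irf9 (-1.97, SE 0.29) and Irf1 (-1.81, SE 0.29), with limma adjusted p of 0.000931 and 0.00143. Stat2 and Rfxank fell by 1.21 and 0.48. Irf1 was at 32.7 scaled FPKM in biliary epithelium, 27.4 in pancreatic epithelium and 5.09 to 11.1 in the organoids. Ezh2, the histone H3 lysine methyltransferase of Polycomb repressive complexes, was at 2.76, 2.57 and 8.99 to 13.3, a rise of 1.78 (SE 0.15, limma adjusted p = 7.35e-05), and Rfxap, a subunit of the RFX complex, rose by 0.86. The other 9 did not pass the test, among them Rela, Relb, Nfkb1, Creb1 and the 3 NF-Y subunit genes. Without the library labelled pancreatic duct epithelium the calls of Stat2 and Rfxank were lost. The Rfxank call was also lost with array weights, with no filter and without the biliary epithelium.

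Interferon target genes fell, and the receptors and kinases of the interferon pathway were counted beside them. Of 8 receptor, kinase and feedback genes tested, 0 fell and 1 rose, against 26.9% and 32.5% of all genes. The 1 was Tyk2, by 0.44, a call lost with voom, with array weights and without the library labelled pancreatic duct epithelium. The count that fell rested on bile duct organoid 1, without which 3 fell (Ifnar2, Ifngr1 and Jak2), and Jak2 was also called lower with voom, with no organ term and without pancreatic duct organoid 2. Ifngr1 was at 74.5 and 55.1 scaled FPKM in the epithelia and 28.3 to 73.4 in the organoids (log2 difference -0.61, limma adjusted p = 0.164), and Ifngr2 at 22.1 and 11.4 in the epithelia and 18.8 to 41.6 in the organoids (0.66, adjusted p = 0.129). A p above the threshold does not show that they were unchanged. Ifng itself was at 0.699 in biliary epithelium, 0.0541 in pancreatic epithelium and 0 in all organoids. Of 17 interferon-stimulated genes, 16 fell and 0 rose, against 26.9% and 32.5% of all genes tested, and Rsad2 did not pass the test (-1.37, limma adjusted p = 0.0576). Iigp1, an immunity-related GTPase, was at 109 and 81.6 scaled FPKM in the epithelia and 0 to 0.236 in the organoids. Gbp2, a guanylate-binding protein, was at 88.6 and 50.0 in the epithelia and 0.0607 to 2.15 in the organoids. Igtp fell by 5.14. Of the 17, 9 passed the filter only through the epithelia, Iigp1, Gbp2 and Gbp3 among them, and so had to be higher there, and 7 of the other 8 fell. Without the library labelled pancreatic duct epithelium the calls of Bst2, Ifit3 and Isg15 were lost. In bile duct alone the median log2 difference of all 17 was -3.30 and that of all genes was 0.07, without a test. Genes that passed the filter only through the epithelia are in that median of the 17. Leukocyte genes, 16 of 16 tested, were lower in organoids as well, against 26.9% of all genes, but 13 of them had passed the filter only through the epithelia and so had to be lower.

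**Figure D5:**
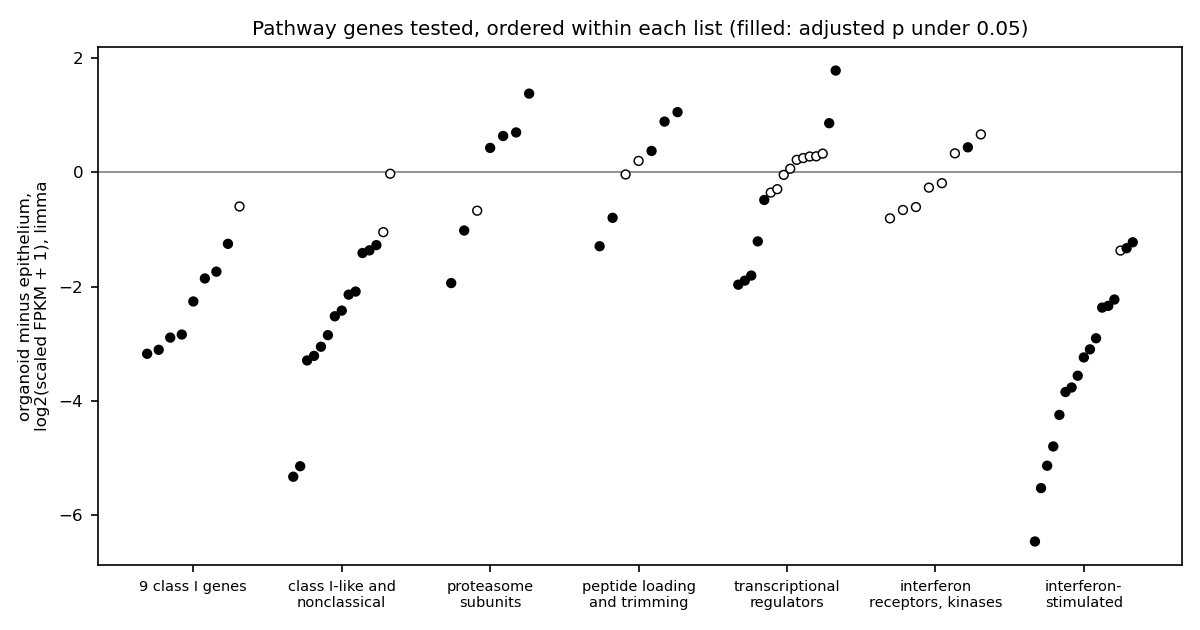
Organoid minus epithelium (limma, log2(scaled FPKM + 1) scale) for each gene tested, ordered within its list. Filled points have an adjusted p under 0.05 and open points do not. Interferon-stimulated and nonclassical genes lie below 0, whereas the proteasome, loading and regulator lists hold points on both sides and the receptor and kinase list has 1 filled point, Tyk2.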

How the data were processed

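Polyadenylated RNA of 8 mouse libraries was sequenced. The values are FPKM, 1 column per library, as deposited by the authors, and the unit was read from the values because no header names it. The submitters' processing notes name HTSeq 0.6.0, HISAT2 2.1.0, Bowtie2 2.2.3 and TopHat2, without their roles, and strand use in counting is not given in the sources used here. Per the labels' protocols, RNA was selected with poly-T beads. FPKM times merged GENCODE M21 exon length gave whole reads (within 0.05) in all 8 libraries for 28310 genes (90.7%). Coordinates are those of the table, and 28575 of 31141 identifiers had identical GENCODE M21 (GRCm38) coordinates. Depth was 12876469 to 20828216 reads or read pairs, and 0 per-sample columns were left unused.

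FPKM was scaled by an unweighted trimmed mean of log ratios (30% of ratios and 5% of levels trimmed) over 8 libraries, or over 6 for the organoid test. Genes with at least 1 FPKM in 3 organoids, or in 2 of 8 libraries, were tested with limma 3.58.1 (trend, R 4.3.3) on log2(FPKM + 1), with Benjamini-Hochberg adjustment over all genes and a threshold of 0.05. Comparisons with 1 library on a side used a 2-fold difference (log2 of 1), with all 3 organoids on 1 side. The test was tried on simulated data. Python 3.11.15 with pandas 2.3.3, numpy 2.4.6, scipy 1.17.1 and matplotlib 3.10.9 was used.

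The members and gene lists were chosen with earlier results of these data known. All 9 members were named. From each wider list up to 4 genes with at least 5 scaled FPKM and the widest difference between organoids and epithelia were named, with Psmb5, Psmb6, Psmb7 and Psmb10, and the 5 genes most like the members' mean profile. Others are named in the text to account for a list. A gene that met the rule is not reported here. Alternatives covered scaling, pseudocount (0.1), filter (none, 10 FPKM), trend, array weights, organ term, replicate block, voom and leaving out each library.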

Additional observations from a re-analysis of the deposited data

Results flagged for a closer look

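H2-Q2, a class I-like gene, was lower in organoids than in epithelium in bile duct and had values on the opposite side in pancreatic duct. Its scaled FPKM was 17.3 in biliary epithelium and 1.35 to 2.41 in the bile duct organoids, but 1.03 in the library labelled pancreatic duct epithelium and 1.52 to 2.91 in the pancreatic duct organoids. Every bile duct organoid was below its epithelium and every pancreatic duct organoid above its own, the latter by 0.55 on the log2(scaled FPKM + 1) scale, which is under the 2-fold rule. The change in bile duct minus that in pancreatic duct was -3.20 on the same scale. The difference was not tested, as each organ has 1 epithelium library, and that of the pancreatic duct is the one at odds with its strain label.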

How the results depend on the processing

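Outside the comparison of organoid groups, 33 counts of members called under an alternative stayed within 1.5 times the reported count and 1 did not. In the comparison of organoids with epithelia the count was 8 of 9 members tested. It includes Nlrc5, which had to differ and is left out of the 7 of 8 given above. Leaving out 1 library gave 5 to 9. The lowest, 5, was without biliary epithelium, where 8 members were tested and Nlrc5 was not. The highest, 9, was without bile duct organoid 1 and includes Nlrc5. The ends of this range therefore count different sets of members. Array weights left 7, Nlrc5 included, H2-D1 being lost (limma adjusted p = 0.0773). A minimum of 10 FPKM left 8 members tested, without Nlrc5, and 7 called. Between organoid groups, differences near 0 changed sign. For B2m the difference was 0.0032 with deposited FPKM, 0.0028 with scaling factors from all 8 libraries and 0.0025 with voom. Leaving out 1 organoid gave -0.45 to 0.29 for B2m, -0.43 to 0.22 for H2-K1, -0.36 to 0.23 for H2-D1, -0.14 to 0.18 for Tap1, -0.14 to 0.23 for Tap2 and -0.76 to -0.06 for Tapbp. The count of members called there was 0 throughout, in a table with nearly no calls, which says nothing about stability. Without pancreatic duct organoid 3, 11 genes of the table were called, 0 of them members. Organoid replicate numbers did not pair the libraries (correlations of deviations -0.10, -0.44 and 0.48), and with the replicate block 0 members and 0 genes were called, 295 at an unadjusted p under 0.05. Among the genes called in the 6 wider lists, 0 changed sign under any alternative. At the depths here, Nlrc5 in organoids rests on 1 to 7 reads a library. The count test planned for recovered reads was not run, and voom, chosen after seeing the data, took its place.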

Other observations

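H2-K2, a class I gene next to H2-K1, had organoid groups that did not overlap, as 6.79% of all genes tested did. It was chosen after its values were seen. It was at 2.72, 2.15 and 2.23 scaled FPKM in the bile duct organoids and 1.18, 1.24 and 1.03 in the pancreatic duct organoids, a log2 difference of 0.64 (SE 0.14, limma unadjusted p = 0.00340, adjusted p = 1.00). Its ratio between the epithelia, biliary over pancreatic, was 4.56, so both the epithelia and the organoids were higher on the bile duct side. That ratio rests on the library at odds with its strain label, and read sharing of H2-K2 with other genes was not measured. The adjusted test did not call it.

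Class II genes of antigen-presenting cells were nearly silent in the organoids. H2-Aa was at 238 in biliary epithelium, 52.6 in pancreatic epithelium and 0 to 0.124 in the organoids, and H2-Ab1 at 256, 33.8 and 0 to 0.969.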
